A study of Mus musculus with 6 samples.

Results

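The AIM2-like genes of the mouse Ifi200 cluster were examined in monocytes that carried or lacked the type I interferon receptor chain IFNAR1. They were taken by name from a list of 10 symbols: Aim2, Ifi203, Ifi204, Ifi205, Ifi207, Ifi209, Ifi211, Ifi213, Mnda, and Mndal. RefSeq gives Mnda as an older name of Ifi211, so the list held 9 genes of the 54232 in the files, and all 9 had enough counts to be tested. The rule is a list of names and sets no threshold on expression. The experiment comprised 6 RNA-seq libraries, 3 of WT and 3 of Ifnar1-/- monocytes sorted from the CNS of mice with EAE, a model of multiple sclerosis. All 6 came from lethally irradiated GFP+ recipients that carried a 1:1 mixture of WT (CD45.1) and Ifnar1-/- (CD45.2) bone marrow and that received 30000 IU of IFN-β daily. Sorted cells were GFP-CD45+CD11b+Ly6ChiLy6G- and were collected at the peak of disease. The ages and sex of these mice are not given in the sources used here. There was no library from mice without IFN-β, so the comparison is of cells with and without the receptor under treatment. The 2 groups also differ in donor strain (CD45.1 against CD45.2), which cannot be told apart from the receptor genotype.

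The Ifi200 genes encode PYHIN proteins, which combine a pyrin domain, through which proteins of this class assemble with one another, with a HIN domain that binds DNA, although some members lack one of these domains. AIM2 is the best known of them: on binding double-stranded DNA in the cytosol it recruits the adaptor ASC and activates caspase-1, which matures IL-1β and IL-18 and cleaves gasdermin D. Many genes of the family are induced by type I interferon. That signal passes from IFNAR1 and IFNAR2 through JAK1 and TYK2 to a complex with STAT2 and IRF9, which binds a DNA element named the interferon-stimulated response element (ISRE).

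RefSeq promoters (GRCm38.p6, 250 bases before to 50 bases after each start) were given for 8 of the 9 genes. The ISRE core, searched on both strands as GAAA followed by any 2 bases and GAAA, was found in 6 of the 8: Ifi203, Ifi205, Ifi207, Ifi211, Ifi213, and Mndal. It was not found in the windows of Aim2 and Ifi209, and no promoter was given for Ifi204. Among 4 other cluster genes with a promoter it was found in Ifi206, Ifi208, and Ifi214, and not in Ifi202b. By comparison, 3.44% of 32851 RefSeq mouse promoters, or 3.99% of 27025 genes, held this core. The 9 windows below show the core, in capitals, with the bases around it, 5′ to 3′ on the strand of each gene, because genes with like and unlike windows are set side by side by fold change further on.
Ifi213: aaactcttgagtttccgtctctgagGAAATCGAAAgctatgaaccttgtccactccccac
Ifi208: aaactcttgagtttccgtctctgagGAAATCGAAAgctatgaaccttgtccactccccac
Ifi206: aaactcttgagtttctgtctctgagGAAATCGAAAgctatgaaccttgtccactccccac
Ifi214: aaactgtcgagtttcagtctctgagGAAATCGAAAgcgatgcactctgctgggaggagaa
Ifi203: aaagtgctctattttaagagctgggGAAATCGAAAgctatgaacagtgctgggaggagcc
Mndal: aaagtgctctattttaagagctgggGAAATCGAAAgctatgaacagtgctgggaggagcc
Ifi205: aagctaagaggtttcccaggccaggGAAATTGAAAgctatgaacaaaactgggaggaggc
Ifi211: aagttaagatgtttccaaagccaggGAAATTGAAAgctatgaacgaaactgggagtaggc
Ifi207: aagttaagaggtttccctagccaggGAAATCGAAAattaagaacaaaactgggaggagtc

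These windows lie at chr1:173599311-173599370 for Ifi213, chr1:173673582-173673641 for Ifi208, chr1:173491324-173491383 for Ifi206, chr1:173536002-173536061 for Ifi214, and chr1:173942493-173942552 for Ifi203. Those of the other genes are at chr1:173880189-173880248 for Mndal, chr1:174031855-174031914 for Ifi205, chr1:173913049-173913108 for Ifi211, and chr1:173741816-173741875 for Ifi207. All are on the minus strand except that of Ifi208, on the plus strand. The core began 73 bases before the start of Ifi213, 58 before Ifi208, 40 before Ifi206, 79 before Ifi214, 35 before Ifi203, 36 before Mndal, 134 before Ifi205, 37 before Ifi211, and 41 before Ifi207. The windows of Ifi213 and Ifi208 were identical, and that of Ifi206 differed from both at 1 of 60 bases. The windows of Ifi203 and Mndal were also identical to each other and differed from that of Ifi213 at 26 bases. Ifi205 and Ifi211 differed from each other at 6 bases. The core read GAAATCGAAA in 7 of the 9 windows and GAAATTGAAA in the other two. Ifi205 and Mndal each held a second match on the opposite strand. The composite element of IRF4 and IRF8 with PU.1, searched as GGAA followed by any 2 bases and GAAA, was in 0 of the 8 member promoters and in 3.16% of genes. A match of letters is not a measured binding site, and no match says only that these letters are not in the window.

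The libraries held 4531782 to 7321380 estimated counts each. A count of 3 corresponded to 0.410 to 0.662 CPM (counts scaled to library size), a floor that covers counting error only. Levels below are normalized CPM, which are counts scaled to an adjusted library size (TMM), given in the order of libraries 1, 2, and 3. The targeted gene, Ifnar1, had 153, 126, and 111 normalized CPM in WT and 109.9, 102, and 109 in Ifnar1-/- libraries, a 1.22-fold difference (95% interval 0.963 to 1.54, adjusted p = 0.360, edgeR quasi-likelihood test). Counts over the whole gene do not show which exons were read, so they do not check the genotype, and the groups are those that the labels give. Monocyte genes were abundant in both groups, with Itgam at 1544 to 1931 normalized CPM in WT and 1528 to 1983 in Ifnar1-/- libraries. Of 8 monocyte markers, Ly6c2 (encoding an antigen of the sort) was higher in WT (639.7 to 788 against 177 to 337 normalized CPM, adjusted p = 0.00957, edgeR) and the other 7 did not pass. DESeq2 called 2 of the 8 higher (Ly6c2 and Fcgr1) and 1 lower (Ccr2), and at an unadjusted p under 0.05 edgeR had 3 higher and 1 lower. Ccr2, the chemokine receptor by which monocytes leave the marrow, had 587 to 694 normalized CPM in WT and 794 to 1269 in Ifnar1-/- libraries, without overlap (fold change 0.650, adjusted p = 0.143, edgeR). The part of a shift within the sorted cells in the results below was not tested. Of 7 T cell markers tested 0 passed with edgeR, DESeq2, or limma-voom, but 6 were higher in WT at an unadjusted p under 0.05 and 4 had every WT library above every Ifnar1-/- library. The list of 9 summed to 20.2 to 49.6 normalized CPM in WT and 8.64 to 22.6 in Ifnar1-/- libraries. The part of T cell RNA in the results below was not tested. The 9 neutrophil markers summed to 336 to 2196 normalized CPM in WT and 851 to 2457 in Ifnar1-/- libraries, with Ly6g at or below 0.790. These ranges overlap widely, and 0 of 8 tested passed even at an unadjusted p under 0.05 (0 with DESeq2 or limma-voom). Of B cell markers, Pax5 was at 0 in all libraries. The 8 microglial markers summed to 256 to 329 against 297 to 374 normalized CPM, and the 8 neural and glial markers to 45.9 to 65.2 against 46.4 to 51.5, with Mog at 0. Of 8 plasmacytoid dendritic cell markers, which summed to 103 to 161 against 52.4 to 65.4, Bst2 was the only one of 2 tested that passed, and Siglech was at most 1.97.

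Most Ifi200 genes were higher in monocytes that had the receptor, and Aim2 was not. A gene was called at an adjusted p of at most 0.05 over all tested genes and a fold change of at least 1.5. By this rule 6 of the 9 genes were higher in WT (Ifi204, Ifi205, Ifi209, Ifi211, Ifi213, and Mndal), 0 were lower, and 3 passed in neither direction (Aim2, Ifi203, and Ifi207). At an unadjusted p under 0.05, 8 were higher and 0 lower, and 0 were lower with DESeq2 or limma-voom. By the rule for calls, 188 (1.67%) of all 11254 genes tested were higher and 52 (0.462%) were lower. These shares are not a background for counts at an unadjusted p under 0.05. The share of all genes at that looser threshold was not computed, for the members or for the other lists. The median log2 fold change was 1.22 for the 9 genes, with a range of -0.06 to 4.55, and -0.01 for all tested genes. In 8 of the 9 every WT library lay above every Ifnar1-/- library, as did 11.1% of tested genes. In bulk samples, fewer cells that express a gene and less RNA per cell cannot be told apart. Exact permutation tests of single genes could not go below p = 0.1 with 3 libraries against 3, and they gave that value for these 8 genes. The chimeras numbered 3, and because each held cells of the WT and the Ifnar1-/- donor, a mouse may have given a library to each group. The labels do not tie a library to a mouse, so p-values measure the spread between these libraries only. Without Ifnar1-/- library 3 the number of genes called was 3 of 9 (Ifi205, Ifi209, and Ifi213, against 0.949% of genes tested), and without any other single library it was 5 or 6. It was also 3 with limma on log2(TPM + 1), by which 0.85% of tested genes were higher.

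**Figure D1:**
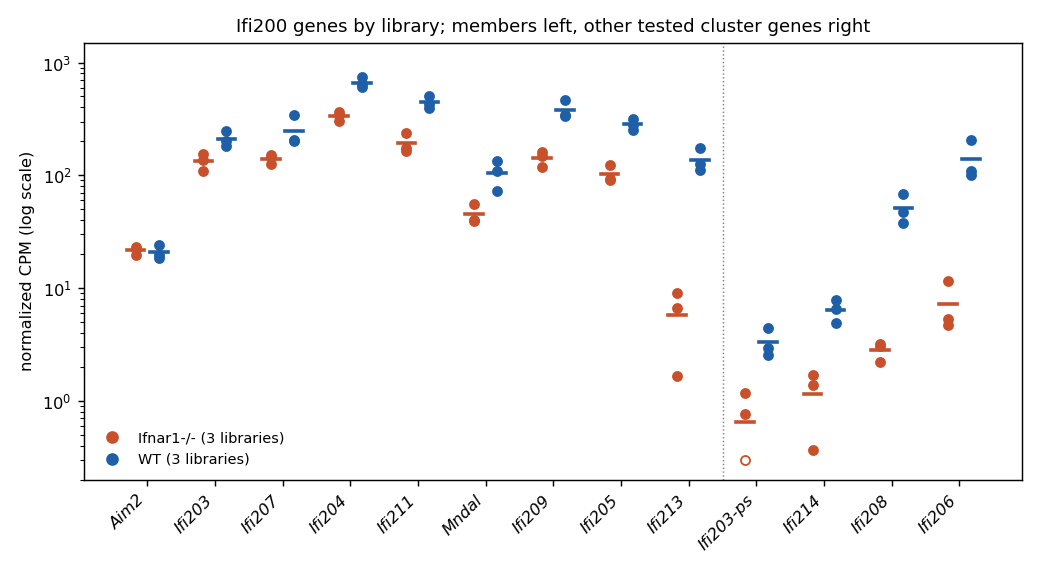
Normalized CPM (log scale) of the 9 member genes and of 4 other tested genes of the cluster, with 1 point for each library and a line at each group mean. WT points lie above all Ifnar1-/- points for each gene except Aim2, and the gap is widest for Ifi213, Ifi206, and Ifi208. The open point for Ifi203-ps stands for a library at 0.

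Ifi213, also named Pydc4 for its pyrin domain, had by far the largest difference of the members. WT libraries had 175, 126, and 112 normalized CPM, and Ifnar1-/- libraries had 6.72, 8.98, and 1.66. All 3 WT libraries lay far above the highest Ifnar1-/- library, which rested on 53 counts, and Ifnar1-/- library 3 held 9 counts. The fold change was 23.5 (95% interval 12.7 to 43.3, adjusted p = 0.000148, edgeR), which placed it at rank 12 of the 11254 tested genes by fold.

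Ifi205, which encodes a nuclear DNA-binding protein, had 317, 278, and 252 normalized CPM in WT. In Ifnar1-/- libraries it had 93.5, 124, and 90.7, and the groups did not overlap. The fold change was 2.75 (95% interval 2.12 to 3.58, adjusted p = 0.00103, edgeR). Ifi209 had 468, 340.1, and 337 normalized CPM in WT and 149.7, 162, and 119 in Ifnar1-/- libraries. WT library 1 was the highest and Ifnar1-/- library 3 the lowest. Its fold change was 2.66 (95% interval 2.00 to 3.54, adjusted p = 0.00232, edgeR).

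Ifi211, the gene that carries the older name Mnda, had 508, 396, and 433 normalized CPM in WT. In Ifnar1-/- libraries it had 164, 238, and 174, again without overlap, for a fold change of 2.33 (95% interval 1.75 to 3.08, adjusted p = 0.00570, edgeR). Mndal, named for its likeness to the myeloid nuclear differentiation antigen MNDA, had 134, 72.5, and 108 normalized CPM in WT and 56.0, 39.3, and 39.9 in Ifnar1-/- libraries. Its lowest WT library and its highest Ifnar1-/- library were the closest of any called member relative to their level. The fold change was 2.33 (95% interval 1.63 to 3.32, adjusted p = 0.0221, edgeR), and Mndal was not called without WT library 3 (adjusted p = 0.0701) or without Ifnar1-/- library 2 or 3 (0.0926 and 0.106, edgeR). Ifi211 was not called without Ifnar1-/- library 3 (adjusted p = 0.0522, edgeR).

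Ifi204 is regarded as the mouse counterpart of the human DNA sensor IFI16. It had 740.5, 604, and 641 normalized CPM in WT and 342, 366, and 305 in Ifnar1-/- libraries. The spread within each group was small next to the gap between them. The fold change was 1.96 (95% interval 1.54 to 2.49, adjusted p = 0.00869, edgeR), the smallest of the 6 genes called, and the call did not hold without Ifnar1-/- library 1 (adjusted p = 0.0532) or 3 (adjusted p = 0.0745).

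Ifi203 and Ifi207 had higher values in every WT library but did not pass the adjusted p. Ifi203 had 245, 183, and 201 normalized CPM in WT and 156, 137, and 109 in Ifnar1-/- libraries, with a fold change of 1.56 (95% interval 1.19 to 2.05, adjusted p = 0.101, edgeR). Ifi207 had 339.5, 201, and 207 in WT and 145, 151, and 127 in Ifnar1-/- libraries, with WT library 1 well above the other two. Its fold change was 1.77 (95% interval 1.28 to 2.44, adjusted p = 0.0819, edgeR). With DESeq2 both were called (adjusted p = 0.0207 for Ifi203 and 0.00746 for Ifi207), which made 8 of 9 genes against 2.87% of all genes tested with DESeq2.

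Aim2 was the 1 member whose groups overlapped. It had 18.5, 24.2, and 19.7 normalized CPM in WT and 19.5, 22.4, and 23.2 in Ifnar1-/- libraries, from 100 to 132 counts in each. The ranges overlapped, with means of 20.8 ± 3.01 (SD, n = 3) and 21.7 ± 1.90 (SD, n = 3). The fold change was 0.958 (adjusted p = 0.890, edgeR), and its 95% interval of 0.734 to 1.25 holds no difference as large as 1.5-fold in either direction. The sign of this small difference depended on the processing.

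**Figure D2:**
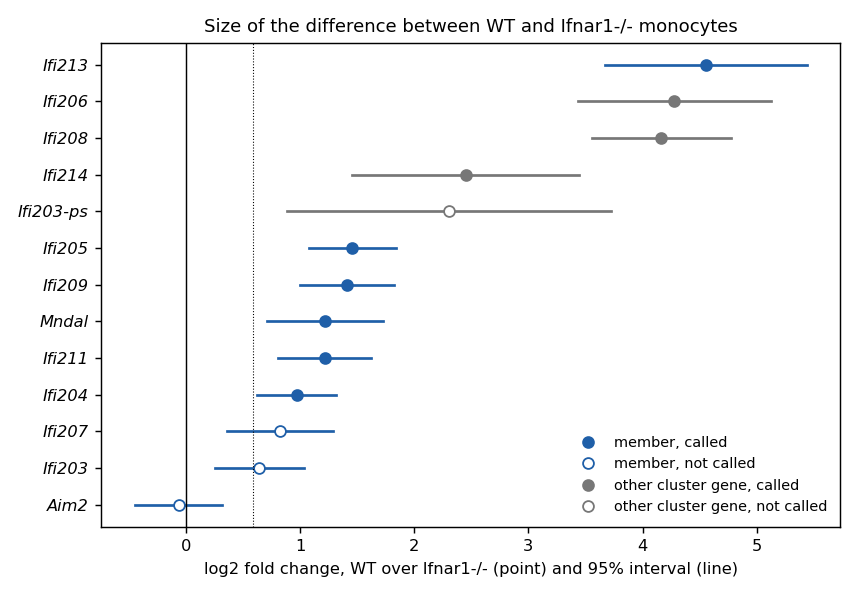
Log2 fold change (WT over Ifnar1-/-) with its 95% interval for 9 members (blue) and 4 other cluster genes (grey). Filled points were called, and the dotted line marks a 1.5-fold difference. Aim2 lies at -0.06, the other members lie between 0.64 and 1.46 apart from Ifi213 at 4.55, and Ifi206 and Ifi208 lie beside Ifi213.

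Summed over the 9 genes, WT libraries had 2946, 2225, and 2311 normalized CPM, and Ifnar1-/- libraries had 1131, 1248, and 989.7. The means were 2494 ± 394 (SD, n = 3) and 1123 ± 129 (SD, n = 3), a ratio of 2.22. The family took 0.231% to 0.283% of all counts in WT and 0.0989% to 0.127% in Ifnar1-/- libraries. This sum does not depend on how reads that fit several members were divided among them. It does depend on the division of reads that also fit cluster genes outside the list. With those other cluster genes added to the sum the ratio was 2.37. In deposited TPM, a unit that corrects for transcript length, the ratio for the 9 genes was 2.23.

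The makeup of this total was compared on the TPM scale, where levels of different genes can be set beside each other. Ifi204 held the largest share in every library, 24.7% ± 1.00 (SD, n = 3) of the summed TPM in WT and 28.5% ± 0.742 in Ifnar1-/- monocytes. Ifi211 followed with 21.2% ± 0.692 and 20.5% ± 2.85. In WT, Ifi205 (14.2% ± 1.10) and Ifi209 (14.2% ± 0.678) could not be ordered within their spread. Ifi203 (6.30% ± 0.269), Ifi207 (5.92% ± 0.964), Mndal (5.74% ± 1.13), and Ifi213 (5.60% ± 0.685) formed a further level within each other's spread, and Aim2 held the least (2.11% ± 0.762). In Ifnar1-/- monocytes the order of the larger shares was the same, but Ifi213 (0.471% ± 0.181) was in last place, behind Aim2 (4.26% ± 1.01). Shares within a library sum to the whole, so they are not independent of each other, and a larger share of 1 gene lowers the others. Ifi205, Ifi209, and Ifi213 held more of the total in each WT library, and Aim2, Ifi203, Ifi204, and Ifi207 held more of it in each Ifnar1-/- library. Each of these 7 reached the smallest p that the two-sided exact permutation test allows (p = 0.1, adjusted over 9 genes 0.129), so none passed a threshold of 0.05. The shares of Ifi211 (p = 0.9) and Mndal (p = 0.8, both from the same exact permutation test) overlapped. TPM of WT library 1 was compressed by the small RNA gene Rn7s2, at 278102 TPM against 73569 to 111751 in the other libraries, and shares within a library are not touched by this.

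**Figure D3:**
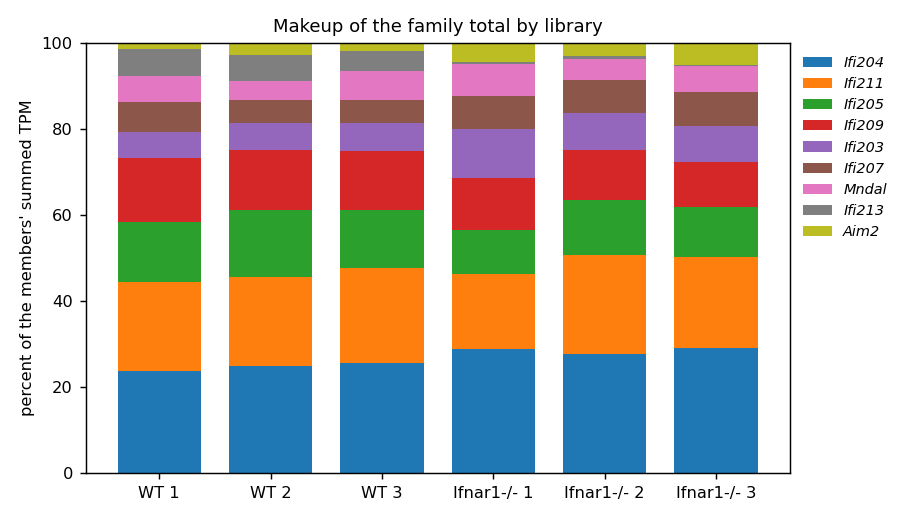
Stacked shares, in percent, of the 9 members in their summed TPM for each of the 6 libraries. Ifi213 (grey) held 4.83% to 6.13% in WT libraries and 0.263% to 0.597% in Ifnar1-/- libraries, and Ifi204 held the largest share in all 6.

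Genes of the same cluster outside the list of symbols had larger differences than most of the members. Of 5 such genes, 4 were tested and 3 were higher in WT, while Ifi203-ps did not pass. Ifi206 had 208, 109, and 101 normalized CPM in WT and 4.73, 11.5, and 5.33 in Ifnar1-/- libraries, a fold change of 19.4 (95% interval 10.8 to 34.9, adjusted p = 0.000173, edgeR). Ifi208, also named Pydc3, had 67.7, 47.4, and 38.1 against 3.05, 3.22, and 2.21, a fold change of 17.9 (95% interval 11.8 to 27.3, adjusted p = 1.67e-05, edgeR). The lowest WT library of each was far above the highest Ifnar1-/- library. Ifi213, Ifi206, and Ifi208, whose promoter windows differ at no more than 1 of 60 bases, had fold changes of 23.5, 19.4, and 17.9, while the other genes with a core had fold changes of 1.56 to 5.47. Ifi203 and Mndal, whose windows are identical to each other, had fold changes of 1.56 (not called) and 2.33 (called). A link between window and fold change was not tested. Ifi213, Ifi206, and Ifi208 also share reads: 6.73% of the Ifi213 transcript windows of 75 bases occur in Ifi208, 7.88% of those of Ifi206 occur in Ifi208, and 6.14% of those of Ifi206 occur in Ifi213. The 95% intervals of these 3 genes overlapped each other.

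Ifi214, at 7.83, 4.89, and 6.52 normalized CPM in WT and 1.37, 1.69, and 0.368 in Ifnar1-/- libraries, had a fold change of 5.47 (95% interval 2.75 to 10.9, adjusted p = 0.0182, edgeR). It rested on 23 to 55 counts in WT and 2 to 10 in Ifnar1-/- libraries, and the call did not hold without WT library 1 (adjusted p = 0.0690) or 3 (0.0575), or without Ifnar1-/- library 1 (0.0872) or 3 (0.0520). The pseudogene Ifi203-ps had 13 to 31 counts in WT and 0 to 7 in Ifnar1-/- libraries (adjusted p = 0.106, edgeR). Ifi202b, which encodes a PYHIN protein without a pyrin domain, was at 0 counts in all 6 libraries, which allows up to 0.662 CPM in the shallowest.

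Members of the family are similar in sequence, and RSEM divided reads that fit more than one of them. Of the windows of 75 bases (the read length) in the annotated transcripts of Ifi211, 63.6% also occurred in another Ifi200 gene, with 40.6% shared with Ifi205 and 23.0% with Ifi204. The share was 23.1% for Ifi209, all of it with Ifi214, 16.6% for Ifi205, 13.2% for Ifi204, and 11.1% for Mndal. It was 8.07% for Ifi213, 5.71% for Ifi203, 2.80% for Ifi207, and 0% for Aim2. By this measure Ifi211 was the member most open to the division of reads, and Aim2 shared none of these windows. Genes were then summed before the test where 1 gene of a pair shared at least 10% of its windows with the other. Pairs among Ifi206, Ifi208, and Ifi213 shared at most 9.04% and were not summed. Ifi204, Ifi205, Ifi211, and Mndal together were higher in WT (log2 fold change 1.14, adjusted p = 0.00572, edgeR). Ifi209 with Ifi214 was higher as well (log2 fold change 1.42, adjusted p = 0.00227, edgeR), as was Ifi213, which made 3 of 6 summed or single features against 1.64% of all features tested. The annotated span of Mndal also overlaps those of Ifi211 and Ifi203 on the same strand.

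The cluster spans chr1:173350879-174031810 (GRCm38, GENCODE M21), with Aim2 at 173350879 to 173466040 at its start and Ifi205 at 174011998 to 174031810 at its end. Between them lie Ifi206, Ifi214, Ifi213, Ifi209, Ifi208, Ifi207, Ifi204, Ifi203-ps, Mndal, Ifi211, Ifi203, and Ifi202b. The 3 genes with the largest fold changes thus lie in the portion nearer to Aim2, although not side by side. Of 6 tested genes of other families within 1 Mb of the cluster 0 were called, against 2.13% of all genes, and 0 passed an unadjusted p under 0.05 or were called by DESeq2 or limma-voom. Their median log2 fold change was 0.00. At a share of 2.13%, a list of 6 genes would mostly hold 0 calls, so this count says little about the region. Within 5 Mb, 1 of 69 was higher in WT, Nectin4, which encodes a cell adhesion protein and had 15.8, 12.1, and 12.8 normalized CPM in WT and 2.29, 3.05, and 4.23 in Ifnar1-/- libraries. Ptprc, whose CD45.1 and CD45.2 forms mark the donors, lies 35.2 Mb away on the same chromosome. Whether donor haplotypes differ at the cluster was not tested.

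**Figure D4:**
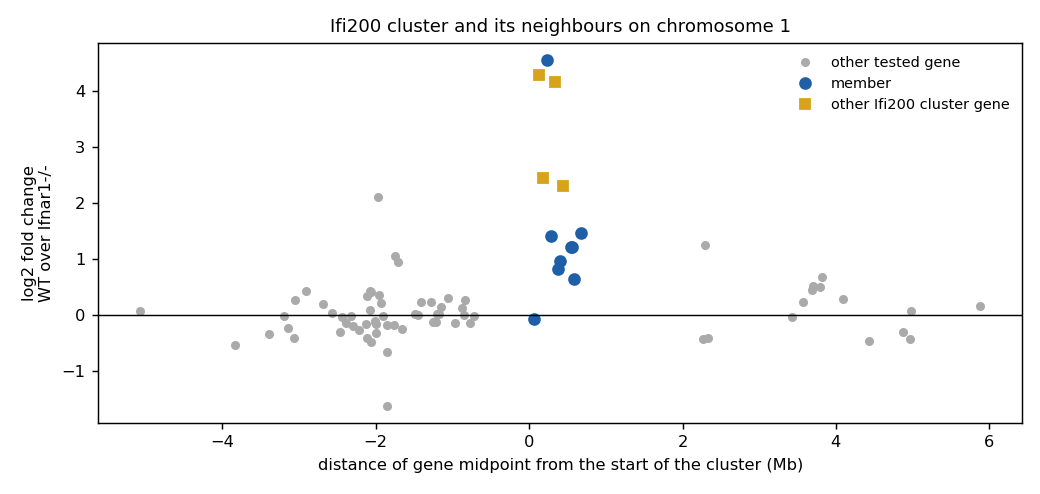
Log2 fold change (WT over Ifnar1-/-) of tested genes against the distance of the gene's midpoint from the start of the cluster, in Mb. Members (blue) and other Ifi200 genes (yellow) lie above 0 except Aim2. Most neighbours lie near 0, and the highest grey point is Nectin4 at 2.10. Some others lie among the members: Kmo at 1.25, above Mndal and Ifi211 (both 1.22), Ly9 at 1.05, and Slamf7 at 0.952. Kmo, Ly9, and Slamf7 were not called by edgeR, and DESeq2 called Ly9 and Slamf7. The lowest grey point is Gm24871 at -1.61, from 4 to 27 counts in each library. Every WT library of Gm24871 lay below every Ifnar1-/- library, and neither edgeR nor DESeq2 called it.

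Most other genes of the AIM2 pathway did not pass the test in either direction. Of 12 inflammasome genes, 1 was higher and 0 were lower in WT with edgeR and with DESeq2 (0 and 0 with limma-voom), with a median log2 fold change of 0.02. At an unadjusted p under 0.05, 2 were higher (Il18 and Ninj1) and 2 lower. The latter were Il1a, which encodes IL-1α (fold change 0.784, 95% interval 0.620 to 0.993, adjusted p = 0.265, edgeR), and Hmgb1, which encodes a nuclear protein released by dying cells (0.742, 0.609 to 0.903, adjusted p = 0.126), and in both every WT library lay below every Ifnar1-/- library. The gene called higher in WT was Il18, a cytokine that caspase-1 matures. It had 7.54, 9.56, and 6.32 normalized CPM in WT and 3.66, 2.37, and 2.39 in Ifnar1-/- libraries (fold change 2.74, 95% interval 1.71 to 4.39, adjusted p = 0.0401, edgeR). The adaptor ASC (Pycard) had 115, 162, and 126 against 153, 155, and 139 (fold change 0.903, 95% interval 0.706 to 1.15). Caspase-1 (Casp1) had 25.8, 35.5, and 33.8 against 36.0, 36.1, and 45.4, with every WT library below every Ifnar1-/- library, as in 12.2% of tested genes (fold change 0.806, 95% interval 0.619 to 1.05). Fold changes were 1.21 (0.946 to 1.54) for Casp4, the sensor of cytosolic lipopolysaccharide, and 1.14 (0.898 to 1.45) for Casp8. Il1b, the other main caspase-1 substrate, ranged from 217 to 354 normalized CPM in WT and from 250.3 to 483 in Ifnar1-/- libraries and did not pass (adjusted p = 0.463, edgeR). Among 8 tested genes for other inflammasome sensors 0 were called by edgeR, DESeq2, or limma-voom and 0 had an unadjusted p under 0.05, with log2 fold changes from -0.02 to 0.31. Of these, Nlrp3 had a fold change of 1.04 (95% interval 0.758 to 1.42), Nlrc4 1.24 (0.967 to 1.59), Naip2 0.984 (0.786 to 1.23), and Naip5 1.17 (0.951 to 1.44).

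Genes of cytosolic DNA sensing and clearance were divided. Of 13 tested, 3 were higher and 0 lower in WT with edgeR, DESeq2, and limma-voom, and 4 and 0 at an unadjusted p under 0.05. Cgas, the DNA sensor that makes cyclic GMP-AMP, had 14.2, 11.5, and 13.8 normalized CPM in WT and 4.28, 4.74, and 4.97 in Ifnar1-/- libraries (fold change 2.83, 95% interval 2.02 to 3.97, adjusted p = 0.00462, edgeR). Zbp1, a sensor of Z-form nucleic acids, had 288, 211, and 196 against 74.98, 102, and 74.8 (fold change 2.76, 2.05 to 3.73, adjusted p = 0.00242). Trex1, an exonuclease that degrades cytosolic DNA, had 106, 99.7, and 81.5 against 35.6, 43.7, and 40.5 (fold change 2.40, 1.89 to 3.05, adjusted p = 0.00139, edgeR). In all 3 the groups did not overlap. The adaptor STING (Tmem173) had a fold change of 1.02 (95% interval 0.800 to 1.30), its kinase Tbk1 1.10 (0.844 to 1.43), Ikbke 1.34 (1.03 to 1.74), and Irf3 1.13 (0.861 to 1.49), and none of these passed.

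Of 12 genes of interferon signalling, 2 were higher in WT. Stat2, a subunit of the complex that binds the ISRE, had 189, 123, and 139 normalized CPM in WT and 30.8, 44.1, and 35.3 in Ifnar1-/- libraries (fold change 4.10, 95% interval 3.01 to 5.60, adjusted p = 0.000347, edgeR). Irf7, a transcription factor of the same response, had 721, 413, and 393 against 25.8, 32.7, and 31.8 (fold change 16.9, 11.3 to 25.4, adjusted p = 1.64e-05, edgeR). Ifnar2 (fold change 1.19, 95% interval 0.975 to 1.46), Jak1 (1.07, 0.825 to 1.39), and Tyk2 (1.23, 0.945 to 1.59) did not pass.

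**Figure D5:**
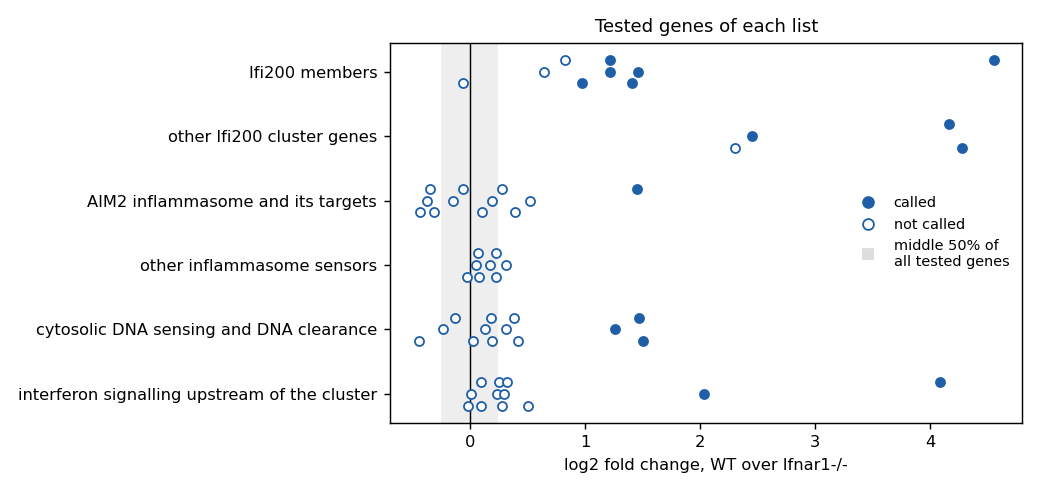
Log2 fold change (WT over Ifnar1-/-) of the tested genes of the Ifi200 cluster and of 4 pathway lists, with 1 point for each gene, filled where it was called. The grey band spans the middle 50% of all tested genes (-0.24 to 0.24). Members sit to the right of the band except Aim2, while most genes of the 4 lists sit in or near it.

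The 5 tested genes outside the cluster whose pattern over the 6 libraries was nearest to the family total were Uba7, 9930111J21Rik2, Ap3m2, Ifi35, and Zcchc2, by the root-mean-square distance of centred log2 normalized CPM (0.0848 to 0.120). Uba7 had 120.0, 90.5, and 99.5 normalized CPM in WT and 44.1, 58.0, and 43.8 in Ifnar1-/- libraries. Of the members, Ifi204 was nearest to the total (0.1004) and Ifi213 farthest (1.86), with Aim2 at 0.660. The total includes these members, and Ifi204 is its largest part.

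Outside the cluster, the ISRE core was in the promoters of 41 of 142 genes called higher in WT (28.9%), 1 of 34 called lower (2.94%), and 297 of 8004 tested and not called (3.71%). Among the members, Ifi203 and Ifi207 had a core and were not called by edgeR, while Ifi209 had no exact match in its window and was called. The Ifi209 window did hold taaatcgaaa, which departs from the searched letters only in its first base. A link between the core and the calls was not tested. With DESeq2 all 6 members with a core were called, as was Ifi209.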

How the data were processed

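RNA was measured in 3 WT and 3 Ifnar1-/- libraries. The authors mapped paired-end reads of 75 bases to GRCm38 and used RSEM (1.2.31, with STAR 2.6.0c, per the submitters' processing notes) to obtain expected counts, TPM, and FPKM for each gene. Expected counts are estimates, are not normalized, and divide reads among similar genes, as deposited by the authors. The deposited TPM values are scaled for length and to a common total, and the deposited FPKM values were not used. The labels and the study's methods name different library kits, and the methods name a human genome build as the version of the mouse GENCODE annotation.

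GENCODE M21 matched 54165 of 54232 gene identifiers. Expected counts were rounded and compared with edgeR 4.0.16 (R 4.3.3), using TMM factors, the filterByExpr filter (minimum count 10), and quasi-likelihood F-tests, and p-values were adjusted by Benjamini-Hochberg over all tested genes. In simulated data of 11070 genes, 100% of 4-fold and 75% of 2-fold changes were recovered, and 3.85% of calls were false. The changed genes were drawn only from those above a minimum mean count. Spread was set by the trend over all genes and not gene by gene. The rates may thus not hold for genes with few counts or a wider spread. Shares were compared with two-sided exact permutation tests. Promoter sequences came from RefSeq.

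Members and gene lists were chosen with earlier results of these data known. Named genes were all members, list genes past both thresholds, up to 4 others of each pathway list in list order, the 5 nearest patterns, and called neighbours within 1 Mb. Nectin4, Kmo, Ly9, Slamf7, Gm24871, Ninj1, Il1a, Il1b, Hmgb1, and the marker genes that are not called were named after their values were seen. Alternatives were DESeq2 1.42.0, RLE, no filter, limma-voom 3.58.1, a stricter filter (at least 10 counts in every library), removal of mitochondrial and ribosomal RNA genes, a replicate block, limma on log2(TPM + 1) for genes with a TPM of at least 1 in 3 libraries, offsets for GC content and length, an adjusted p alone, and leaving out each library. Summing genes that share reads was chosen after seeing the data. A few marker and pathway genes are not reported here.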

Additional observations from a re-analysis of the deposited data

How the results depend on the processing

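The 9 members gave 3 to 8 calls higher in WT over the alternatives and 0 lower in each. Ifi205 and Ifi209 were called in every alternative run that tested them as single genes, and Ifi213 in every one in which it was tested. Summing genes that share reads merged Ifi205 and Ifi209 with other genes. Ifi213 was not tested where 10 counts were required in every library. The numbers of genes higher and lower in WT were 314 and 105 with DESeq2, 610 and 262 without the filter, 100 and 26 with limma on log2(TPM + 1), and 295 and 91 with the replicate block and GC and length offsets. Leaving out 1 library gave 110 to 204 higher, 7 to 41 lower, and 3 to 6 members called. The members called numbered 3 with limma on log2(TPM + 1) and 3 features with members that share reads summed, where fewer features were counted. With limma on TPM, Ifi204 (adjusted p = 0.150), Ifi211 (0.0608), and Mndal (0.107) did not pass, and the cause was not tested.

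The log2 fold change of Aim2, -0.06, became 0.13 with limma on log2(TPM + 1), 0.0783 with GC and length offsets, 0.0841 with these and the replicate block, and -0.17 to 0.03 without 1 library, above 0 without WT library 1 (0.029) or Ifnar1-/- library 3 (0.0034), and its adjusted p was 0.668 or more throughout. The cause was not tested. The share of Mndal in the total, lower in WT on TPM, was higher by 0.119 percentage points on counts, which are not corrected for length. Called neighbours within 5 Mb numbered 1 with edgeR (1.45% of those tested, against 2.13% of all genes). They numbered 3 with DESeq2 (4.48% against 3.83%) and 1 with the replicate block (1.45% against 1.95%), so these shares were near those of all genes.

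Same-numbered libraries deviated together by correlations of 0.0906, 0.0278, and 0.275. WT libraries 2 and 3 each correlated best with the Ifnar1-/- library of the same number. WT library 1 correlated about equally with Ifnar1-/- libraries 1 and 2 (0.0906 and 0.0920). The remaining pairs of unlike number had -0.196 to 0.018. These values do not settle whether same-numbered libraries are pairs, and the labels do not say, so the main fit used no block. With the replicate block, 182 genes were higher and 38 lower, 6 members and 3 other cluster genes were higher, 0 members were lower, and the log2 ratio of the family total was 1.15. The block with DESeq2 gave 212 and 52 genes and 8 members, and the block with offsets gave 8 members and 4 other cluster genes. Collapsing members by protein identity was not run because no protein sequences were used here. Counts of 2 to 10 limit Ifi214 and of 0 to 7 limit Ifi203-ps in Ifnar1-/- libraries.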
